A study of Mus musculus with 48 samples.

Results

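The 10 genes of the major histocompatibility complex (MHC) class II pathway, H2-Aa, H2-Ab1, H2-Eb1, Cd74, H2-DMa, H2-DMb1, H2-DMb2, H2-Oa, H2-Ob and Ciita, were taken by name from the 34586 genes of the count table. They were followed through joint, lung, muscle, skin and spleen, with macrophages, fibroblasts and endothelial cells described in most detail. The transcripts of single cells were counted as unique molecular identifiers (UMIs) with Seq-Well, a method that pairs single cells and barcoded beads in arrays of nanowells. The animals were young adult male DBA1/J mice. The 4 healthy mice (H3, H4, H6 and H7) were injected with phosphate-buffered saline in place of the immunization, and the 6 mice with collagen-induced arthritis (CIA) were immunized with bovine collagen II in complete Freund's adjuvant and boosted in incomplete Freund's adjuvant. Arthritis was mild in S5, S6 and S8 and severe in S1, S2 and S3. The sample titles carry the prefix 2CIA for the 3 severe mice and H3, and CIA for the others, so that severity and this prefix, taken as the name of an experiment, cannot be told apart among CIA mice. Joint was sampled in 3 healthy and 5 CIA mice and each other organ in 4 and 6, which gave 48 samples with 34 to 2096 cells and 20347 to 1708093 UMIs each, cells without a label included. Of the 13240 cells, 12096 carried a cell type label of the authors, 59 of 13164 barcodes occurred in 2 or more samples, and no pair of samples held identical values.

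MHC class II molecules are heterodimers that present peptides from endocytosed protein to CD4 T cells. Their alpha and beta chains are encoded by H2-Aa and H2-Ab1 for the I-A molecule and, for I-E, by H2-Eb1 with an alpha chain gene that is a pseudogene (H2-Ea-ps) in the reference strain. The invariant chain Cd74 guides new dimers to endosomes, where the H2-DM dimer (H2-DMa with H2-DMb1 or H2-DMb2) loads peptide and the H2-O dimer (H2-Oa and H2-Ob), best known from B cells, holds H2-DM back. Ciita is the coactivator on which transcription of the class II genes depends. B cells, dendritic cells and many macrophages express the pathway, whereas fibroblasts and endothelial cells are known to take it up under interferon-gamma. Susceptibility to CIA is tied to the class II haplotype, and DBA1/J mice carry another haplotype than the reference strain C57BL/6J. Reads from polymorphic exons could therefore have been lost in alignment, which was not tested, and H2-DMb1 and H2-DMb2 are near-identical copies whose split is uncertain.

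In the annotation of GRCm38, 8 of the 10 genes lay within 224 kb of chromosome 17, from H2-Oa at 34092340 to the end of H2-Eb1 at 34316674, and Ciita lay on chromosome 16. The position of Cd74 was not looked up. Class II promoters are known for an X box and a Y box on which a regulator complex assembles and recruits Ciita. RefSeq promoter windows of GRCm38.p6, which run from 250 bases before to 50 bases after a transcription start, were matched for 7 of the 10 genes (8 windows). H2-Ab1 and Ciita were without an entry, and Cd74 was left out of the search. The letters ACNGATG, as the core of an X box, and CCAAT, as the core of a Y box, were searched on both strands. CCAAT was found in 7 of the 8 windows and in 37.4% of 32851 promoters, and ACNGATG in 5 windows and in 9.85% of promoters. An ACNGATG followed by an inverted CCAAT after 10 to 30 bases was found in 52 promoters (0.158%), which included H2-Eb1 with 22 bases between them and H2-DMb1 and H2-DMb2 with 23 each. Those 3 promoters are shown because they carry this arrangement, and that of H2-Aa because this gene carries most of the results below. Capitals mark the matches, and the strand follows the gene.
H2-Eb1 promoter, chr17:34305617-34305916, plus strand: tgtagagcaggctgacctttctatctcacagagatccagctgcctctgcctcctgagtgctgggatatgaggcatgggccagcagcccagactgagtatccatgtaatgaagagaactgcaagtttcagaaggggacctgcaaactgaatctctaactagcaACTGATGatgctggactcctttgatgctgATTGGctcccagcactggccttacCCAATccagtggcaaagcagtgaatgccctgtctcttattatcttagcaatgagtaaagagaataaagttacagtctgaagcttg
H2-DMb1 promoter, chr17:34152941-34153240, plus strand: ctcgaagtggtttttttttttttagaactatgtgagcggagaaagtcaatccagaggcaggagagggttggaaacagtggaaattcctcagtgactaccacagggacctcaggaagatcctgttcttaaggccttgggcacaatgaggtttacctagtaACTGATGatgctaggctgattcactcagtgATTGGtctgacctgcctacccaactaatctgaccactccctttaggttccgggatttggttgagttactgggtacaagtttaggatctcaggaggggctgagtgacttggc
H2-DMb2 promoter, chr17:34144999-34145298, plus strand: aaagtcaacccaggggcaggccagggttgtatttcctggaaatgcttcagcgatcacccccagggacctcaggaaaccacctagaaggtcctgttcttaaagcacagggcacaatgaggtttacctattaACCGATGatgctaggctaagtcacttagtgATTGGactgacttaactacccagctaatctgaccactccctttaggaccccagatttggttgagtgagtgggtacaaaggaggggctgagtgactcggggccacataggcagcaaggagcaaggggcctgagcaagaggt
H2-Aa promoter, chr17:34287774-34288073, minus strand: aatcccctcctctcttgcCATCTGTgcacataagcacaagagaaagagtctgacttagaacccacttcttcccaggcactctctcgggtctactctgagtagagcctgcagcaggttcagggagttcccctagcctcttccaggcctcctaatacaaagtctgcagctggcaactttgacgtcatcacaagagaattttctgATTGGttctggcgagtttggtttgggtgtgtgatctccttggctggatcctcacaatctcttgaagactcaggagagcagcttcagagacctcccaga
In the H2-Aa window the inverted CCAAT lay 48 bases before the start and ACNGATG occurred on the opposite strand 232 bases before it, without the spaced arrangement. A match of letters describes the sequence only.

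The 10 genes accounted for 93955 UMIs, which was 0.882% of the UMIs of labelled cells, and 66.4% of labelled cells held at least 1 of them. The invariant chain Cd74 was the most abundant with 41497 UMIs, followed by H2-Aa with 25482 and H2-Ab1 with 19007. H2-DMb2 (2330 UMIs), H2-DMa (2214) and H2-DMb1 (1442) formed a second tier. H2-Eb1 gave 792 UMIs, H2-Oa 566, H2-Ob 488 and Ciita 137. H2-Eb1 of the I-E molecule thus gave few UMIs beside H2-Aa of I-A, at 2.65 per 100 UMIs of H2-Aa in muscle macrophages, 3.95 in spleen B cells and 6.32 in lung macrophages. These counts are per transcript end and not corrected for capture, so the order of genes describes the libraries.

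Across 35 classes of at least 20 cells (an organ and a cell type label), Cd74 ranged from 36.5 CPM (UMIs per 1000000 UMIs of the same cells) in skin fibroblasts to 14888 CPM in the class labelled myocytes of muscle. That label was not borne out by the data. The muscle myocytes came to 1492 of 1604 cells from mouse S6, held summed B cell markers at 2672 CPM in S6, and 1139 of the 1492 cells had a UMI of a B cell gene. Among the classes below them, muscle macrophages stood at 8541 CPM of Cd74, spleen B cells at 6657, muscle B cells at 6524, muscle T cells at 5793, skin macrophages at 5278, spleen monocytes at 4680, joint macrophages at 3002, spleen dendritic cells at 2688, muscle fibroblasts at 2257 and lung macrophages at 2099. Over mice with at least 10 cells the spread was wide, with 6745 ± 3852 CPM (SD, n = 7) in muscle macrophages, 6156 ± 1453 (n = 10) in spleen B cells, 4331 ± 1732 (n = 10) in spleen monocytes, 4097 ± 3567 (n = 7) in joint macrophages and 1891 ± 1003 (n = 10) in lung macrophages. Muscle macrophages and spleen B cells differed by less than either SD, and so did spleen monocytes and joint macrophages. Muscle T cells, which do not make class II in the mouse, held from 160 CPM of Cd74 in H4 to 7341 in H6, and the B cell markers in their libraries reached 1368 CPM. The part of admixed cells or free RNA in that level was not tested.

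**Figure D1:**
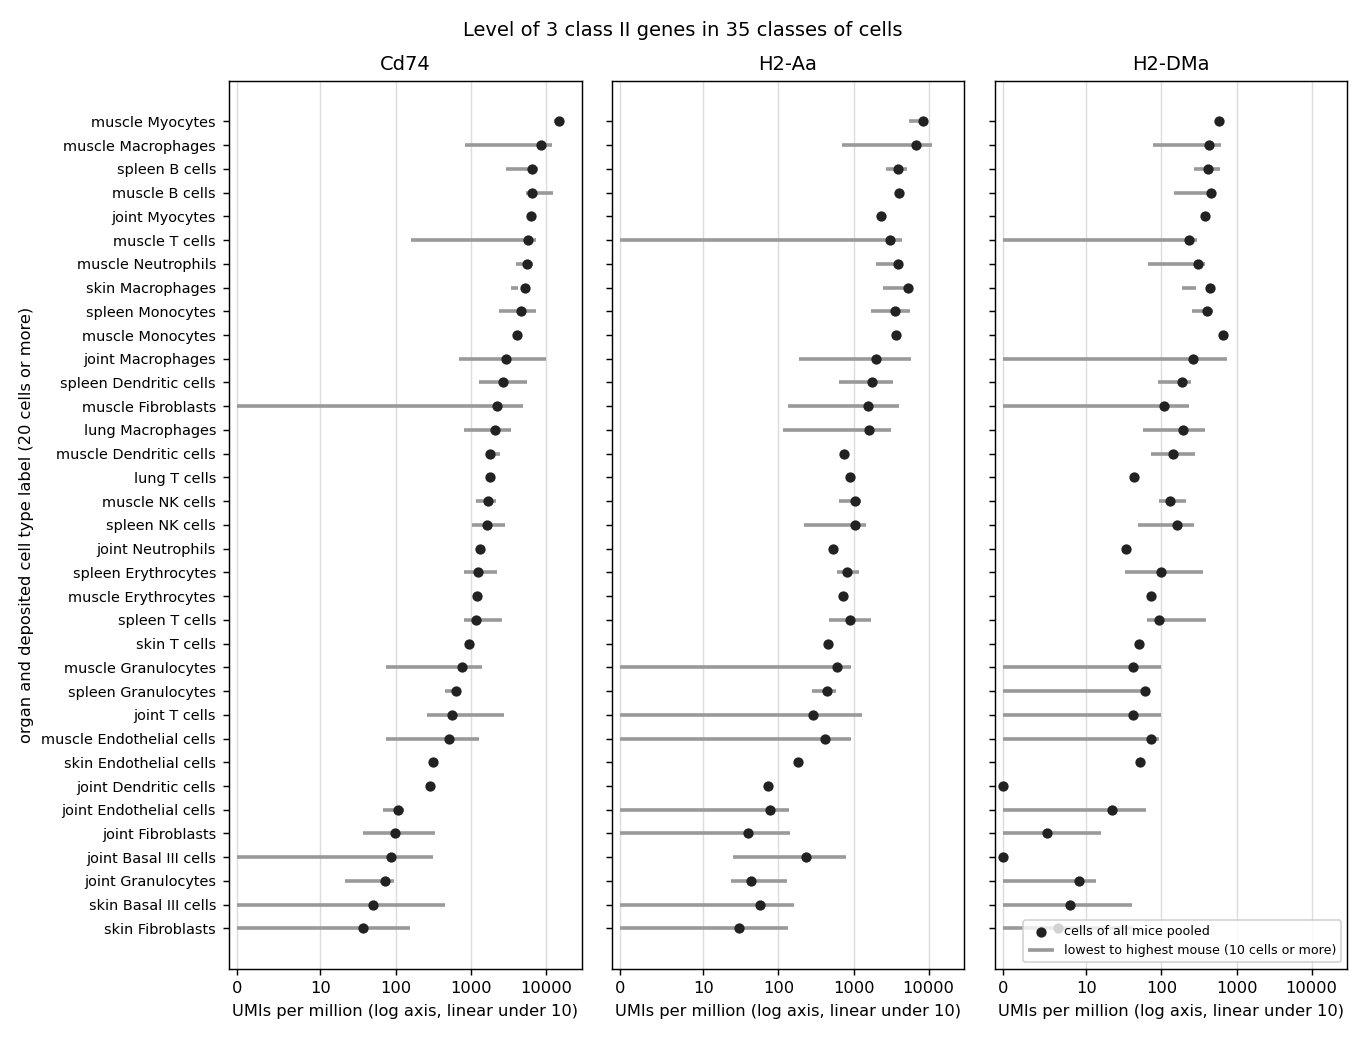
Level of Cd74, H2-Aa and H2-DMa (CPM, log axis that is linear under 10) in 35 classes of cells, ordered by Cd74. Points give the cells of all mice pooled and bars the lowest to the highest mouse with at least 10 cells. By label, muscle myocytes, muscle macrophages, spleen B cells and muscle B cells lie at the top, followed by joint myocytes (20 cells), muscle T cells and muscle neutrophils. Fibroblasts and endothelial cells of joint and skin lie near the bottom, with Cd74 at 98.2 CPM in joint fibroblasts and 36.5 in skin fibroblasts.

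The ratio of H2-O to H2-DM transcripts varied across the classes. In spleen B cells, 264 UMIs of H2-Oa and H2-Ob stood beside 1125 of the H2-DM genes, or 23.5 per 100. In spleen dendritic cells the ratio was 24.6 per 100, in spleen monocytes 15.1 and in muscle macrophages 9.83. Joint macrophages gave 2 UMIs of H2-O beside 221 of H2-DM (0.905 per 100), and lung macrophages 8 beside 150 (5.33 per 100). Ciita stood at 56.0 CPM in spleen B cells, 42.3 in spleen monocytes and 35.9 in spleen dendritic cells, and at 3.00 CPM (1 UMI) in joint macrophages. The 677 lung macrophages gave no UMI of it. These values pool cells over mice and carry no test. In spleen dendritic cells of CIA mice, B cell markers summed to 429 to 1304 CPM and dendritic cell markers to 91.1 to 245. Granulocyte markers summed to 43629 to 185376 CPM there and erythroid markers to 61220 to 315967. The dendritic cell genes Xcr1, Cd209a and Zbtb46 were at 0. These markers do not bear out the label, which was kept as given. A B cell gene was found in 18.5% (S3) to 52.4% (S6) of spleen monocytes per mouse, and in 64.3% of the muscle macrophages of S6. The part of B cell RNA in the H2-O and Ciita values was not tested.

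Macrophages of the joint held less class II transcript in CIA than in healthy mice. The joint is where the arthritis of this model arises, and its macrophages are known both as tissue residents and as cells derived from monocytes. The 3 healthy mice with at least 10 macrophages (17 to 27 cells) were compared with the 4 CIA mice S1, S3, S5 and S8 (21 to 110 cells), and S6 had 2 such cells and was left out. H2-Aa, the I-A alpha chain, stood at 3727 CPM in H3, 5798 in H4 and 4383 in H7, against 1471 in S1, 772 in S3, 1564 in S5 and 188 in S8. H2-Ab1, the I-A beta chain, stood at 2614, 3950 and 3315 CPM in the healthy mice and at 948, 772, 1237 and 62.7 in the CIA mice in the same order. Cd74 stood at 4647, 10084 and 7642 CPM against 1684, 1213, 2718 and 690. For these 3 genes every CIA mouse lay below every healthy mouse, and S8 was the lowest each time. Of the 273 genes tested in this class, 8.42% were placed in that way. A fold change was computed from sums of UMIs per mouse with the quasi-likelihood test of edgeR, and p-values were adjusted over the genes tested by the Benjamini-Hochberg method with a threshold of 0.05. The log2 fold change of CIA against healthy was -2.17 (SE 0.43, adjusted p = 0.013) for H2-Aa, -2.05 (SE 0.47, adjusted p = 0.022) for H2-Ab1 and -2.22 (SE 0.39, adjusted p = 0.010) for Cd74, the last a fold of 4.66. These were the 3 members that passed the filter on low counts, and 5.13% of genes tested were called lower. The median log2 fold change was -2.17 over those members and 0.02 over the genes tested.

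The remaining members of the joint macrophages were too sparse for that filter, and their values come from a fit of every gene with a UMI. H2-DMa, the alpha chain of the peptide editor, stood at 411, 756 and 393 CPM in H3, H4 and H7 and at 160, 0, 296 and 0 CPM in S1, S3, S5 and S8. The log2 fold change of -1.06 (SE 0.66) had an adjusted p of 0.61 in edgeR. H2-Eb1 gave 14 UMIs in the healthy and 17 in the CIA mice over unequal numbers of cells, with a log2 fold change of -1.32 (SE 0.82, adjusted p = 0.61). Its levels ran from 96.8 to 337 CPM in healthy and from 0 to 95.9 in CIA mice. H2-DMb1 ran from 242 to 506 and from 0 to 202 CPM, and H2-DMb2 from 290 to 393 and from 0 to 182. Their means differed by 3.18-fold for H2-DMb1 and 3.25-fold for H2-DMb2, while the fitted log2 fold changes were smaller at -0.67 and -0.74, with adjusted p = 0.63 for both. H2-Ob, with 2 UMIs, and Ciita, with 1, give no reading, and H2-Oa was not detected. How often the groups lie apart over genes this sparse was not computed, so the ranges of H2-DMa, H2-Eb1, H2-DMb1 and H2-DMb2 carry no reading alone.

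The share of cells with a UMI of H2-Aa or Cd74 was also lower in every CIA mouse than in every healthy mouse. How often the groups lie apart in such shares over all genes was not computed, so this placement carries no reading alone. When each cell was thinned to 400 UMIs, 51.1% ± 7.04 (SD, n = 3) of healthy joint macrophages held a UMI of H2-Aa, against 16.1% ± 7.85 (n = 4) in CIA. The shares for Cd74 were 51.9% ± 9.39 and 21.3% ± 5.59. The exact two-sided permutation test over mice gave p = 0.057 for H2-Aa, H2-Ab1, H2-Eb1 and Cd74 alike, which is the smallest p that 3 against 4 mice allow, and adjusted p = 0.196 over 24 tests. Without thinning the means for H2-Aa were 56.8% and 19.4%. As a reference for free RNA, 4.87% of 759 joint granulocytes held a UMI of Cd74, at a median of 830 UMIs per cell against 819 in the macrophages. Cells with at least 10 UMIs of H2-Aa made up 15 of 61 healthy (24.6%) and 14 of 241 CIA macrophages (5.81%). Within cells that held a UMI of H2-Aa, its level was 7938 ± 3180 CPM in healthy (SD, n = 3) and 5289 ± 2633 in CIA mice (n = 4), with overlapping ranges.

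Other cell markers moved with this result. Summed granulocyte markers in the joint macrophages (6 of 6 detected) ran from 924 to 9319 CPM in healthy and from 34118 to 61896 in CIA mice. The 5 monocyte markers ran from 843 to 1718 and from 2069 to 4525 CPM. The 9 macrophage markers overlapped (11473 to 23109 against 15114 to 27437). B cell markers (5 of 6 detected, Ms4a1 at 0) reached 48.4 CPM in healthy and 68.3 in CIA mice, and dendritic cell markers (7 of 9, Xcr1 and Clec9a at 0) ran from 56.2 to 218 and from 188 to 547. The part of granulocyte RNA and of incoming monocytes in the lower class II sums was not tested. Without cells that held a UMI of a B cell gene or, in a fit added after the data were seen, of a dendritic cell gene, the log2 fold changes lay between -2.34 and -2.08 with the 3 calls kept. Within the experiment CIA alone the changes were as large (-2.45, -2.33 and -2.35) but not called, and fitting without the filter on low counts left none called. Without H7 only Cd74 stayed called (H2-Aa at adjusted p = 0.061), and H2-Ab1 was also lost without H4, S1 or S3, with adjusted p up to 0.086. Among the CIA mice, H2-Aa averaged 876 CPM in the mild S5 and S8 and 1121 in the severe S1 and S3.

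**Figure D2:**
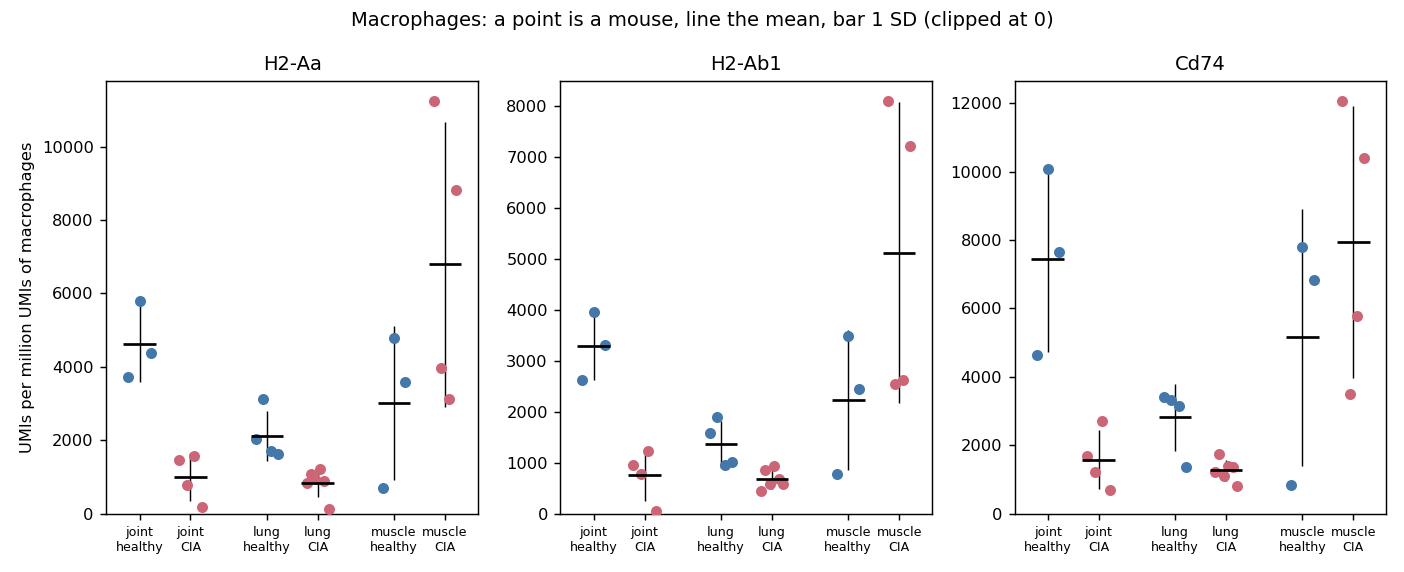
Level of H2-Aa, H2-Ab1 and Cd74 (CPM, linear axis) in healthy and CIA mice with at least 10 macrophages. Each point is a mouse, the line is the mean and the bar is 1 SD. In joint the CIA mice lie below the healthy mice in the 3 panels, in lung they do so for H2-Aa and H2-Ab1, and in muscle the groups overlap.

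Macrophages of the lung also held less in CIA. The lung was compared over all 10 mice, with 29 to 148 macrophages each. H2-Aa stood at 2035 CPM in H3, 3119 in H4, 1701 in H6 and 1628 in H7. In the CIA mice it ranged from 116 in S8 over a median of 922 to 1213 in S5, so that the groups did not overlap. H2-Ab1 stood at 1577, 1896, 955 and 1009.6 CPM in the healthy mice, and in CIA it ran from 446 in S1 to 936 in S5, again below every healthy mouse. Cd74 stood at 3412, 3331, 3163 and 1368 CPM against 812 to 1743, and here H7 lay within the CIA range. Among the 538 genes tested, 2.6% had every CIA mouse below every healthy mouse. The log2 fold change was -1.39 (SE 0.31, adjusted p = 0.011) for H2-Aa, -1.12 (SE 0.27, adjusted p = 0.013) for H2-Ab1 and -1.21 (SE 0.24, adjusted p = 0.0032) for Cd74 in edgeR. These 3 of 3 members tested were called lower, where 2.79% of the genes tested were. Without H4 only Cd74 stayed called, with H2-Aa at adjusted p = 0.083 and H2-Ab1 at 0.10, and without H3 H2-Ab1 was at 0.059. Within the experiment CIA alone none was called, with log2 fold changes of -1.46, -0.85 and -1.11 and adjusted p = 0.16, 0.34 and 0.12. Without the filter on low counts H2-Aa alone was called.

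The thinned share of lung macrophages with a UMI averaged 33.3% ± 7.96 (SD, n = 4) in healthy and 17.2% ± 7.36 (n = 6) in CIA mice for H2-Aa, and 41.8% ± 1.57 and 25.5% ± 5.42 for Cd74. The exact permutation p was 0.019 and 0.0095, the latter the smallest that 4 against 6 mice allow, and neither passed adjustment over the 24 tests (adjusted p = 0.152). In lung, 50% of the 78 cells labelled T cells held a UMI of Cd74 (exact 95% interval 38.5 to 61.5%, counting error only), at a median of 527 UMIs per cell. The unthinned share of 36.9% in lung macrophages (33.3 to 40.7%, median 583 UMIs) was not above that. The level of H2-Aa was 1607 CPM in the macrophages and 884 in those T cells. The H2-DM and H2-O genes gave few UMIs in lung macrophages, from 150 in all for H2-DM to 8 for H2-O, and none was called. H2-DMb1 was at a log2 fold change of -1.37 (SE 0.69, adjusted p = 0.59) and H2-DMa at -0.68 (SE 0.49, adjusted p = 0.59) in edgeR.

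Markers within the lung macrophages also differed between groups. The alveolar macrophage list (9 genes in the table, 8 detected) summed to 2775 to 3773 CPM in healthy and 1270 to 1788 in CIA mice, and the 5 monocyte genes to 143 to 448 and 1282 to 3054. Granulocyte genes ran from 358 to 631 and from 580 to 14964 CPM. B cell genes (57.2 to 179 against 0 to 139) and dendritic cell genes (89.5 to 366 against 116 to 312) overlapped. How far a different mix of macrophages carried the class II difference was not tested. Leaving out cells with a B cell UMI or a dendritic cell UMI kept the 3 calls.

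**Figure D3:**
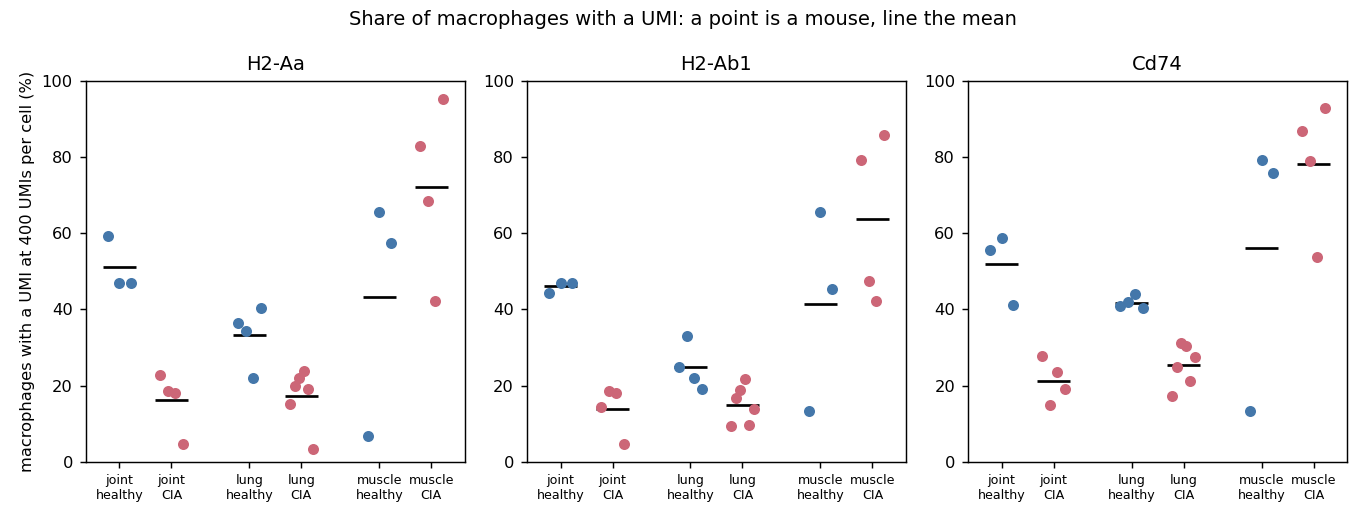
Share of macrophages (percent of cells) with a UMI of H2-Aa, H2-Ab1 or Cd74 after thinning to 400 UMIs per cell, where each point is a mouse and the line is the mean. The joint shares for H2-Aa average 51.1% in healthy and 16.1% in CIA mice, the lung shares 33.3% and 17.2%, and the muscle shares 43.3% and 72.2% with overlapping mice.

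Macrophages of muscle had higher mean levels in CIA, which did not pass the test. H2-Aa stood at 693 CPM in H4, 4777 in H6 and 3593 in H7 against 11232 in S2, 3981 in S3, 3130.4 in S5 and 8820.1 in S6. Cd74 stood at 848, 7786 and 6824 CPM against 12080 in S2, 3503 in S3, 5786 in S5 and 10388 in S6. Mouse H4 was the lowest and S2 and S6 were the highest for H2-Aa, H2-Ab1 and Cd74, and the groups overlapped. The log2 fold change was 1.27 for H2-Aa (SE 0.59, adjusted p = 0.72), 1.30 for H2-Ab1 (SE 0.53, adjusted p = 0.67), 0.74 for Cd74 (SE 0.63, adjusted p = 0.79) and 1.58 for H2-DMb2 (SE 0.59, adjusted p = 0.67). None of the 6 members tested was called by edgeR, where 0.183% of genes were called in either direction. An unadjusted p under 0.05 was found for 2 of them, H2-Ab1 and H2-DMb2, and for 33 of the 545 genes tested. A UMI of a B cell gene was found in 54 of the 84 macrophages of S6 (64.3%), 9 of 53 of S2, 2 of 19 of S3 and 2 of 26 of S5, and among the healthy mice in 9 of 33 of H7 (27.3%), 3 of 29 of H6 and 0 of 15 of H4. In the same samples the 9 macrophage markers summed to 13709 to 24886 CPM in healthy and 7072 to 11292 in CIA mice. Their part in the values was not tested.

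The difference between CIA and healthy macrophages itself differed between organs. In a fit of the 3 organs with the product of organ and disease, the CIA difference in joint minus that in muscle was -3.36 on the log2 scale for H2-Aa (SE 0.73, adjusted p = 0.011), -3.29 for H2-Ab1 (SE 0.67, adjusted p = 0.0097) and -2.89 for Cd74 (SE 0.68, adjusted p = 0.019), and 0.986% of the 913 genes tested were called lower. With the mouse as a block, since organs came from the same animals, these became -2.71, -2.56 and -2.50 with adjusted p = 0.063, 0.093 and 0.093, so that the calls were lost. They were also lost without H4 or without H7. For lung minus muscle, H2-Aa was at -2.67 (adjusted p = 0.043) and H2-Ab1 at -2.42 (adjusted p = 0.043), where 0.438% were called lower, and with the block they were at adjusted p = 0.10 and 0.25. Without H3, H4, H7, S1, S2, S3 or S6 neither was called. For joint minus lung no member was called (0.11% in either direction), with H2-Aa at -0.69 and an approximate 95% interval from -2.02 to 0.64. In an edgeR fit with organ and disease but not their product, lung macrophages averaged less than muscle macrophages. The log2 difference was -2.05 for H2-Aa (SE 0.46, adjusted p = 0.0017), -2.06 for H2-Ab1 (SE 0.42, adjusted p = 0.00062) and -1.90 for Cd74 (SE 0.40, adjusted p = 0.00082), against 13.2% of genes called lower. With cells pooled, H2-Aa stood at 2473 CPM in lung and 3572 in muscle of healthy mice, and at 904 and 7956 in CIA mice. In H4 lung stood above muscle for H2-Aa and Cd74. H2-DMb1 and H2-DMb2 were also lower in lung in the fit of every gene (-2.30 and -2.33, adjusted p = 0.00047 and 0.00052). Of the 4 members that passed the filter, none was called between joint and lung (14.1% of genes called) or joint and muscle (1.54%). In the fit of every gene H2-Oa, with no UMI in joint and 18 in muscle macrophages, was called between these organs (adjusted p = 0.020). Of those 18 UMIs, 17 came from CIA mice. A B cell gene was found in 54 of the 84 muscle macrophages of S6, and the part of B cell RNA in this call was not tested. The share of genes called in the fit of every gene is not given, so the calls of H2-DMb1, H2-DMb2 and H2-Oa carry no reading alone.

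**Figure D4:**
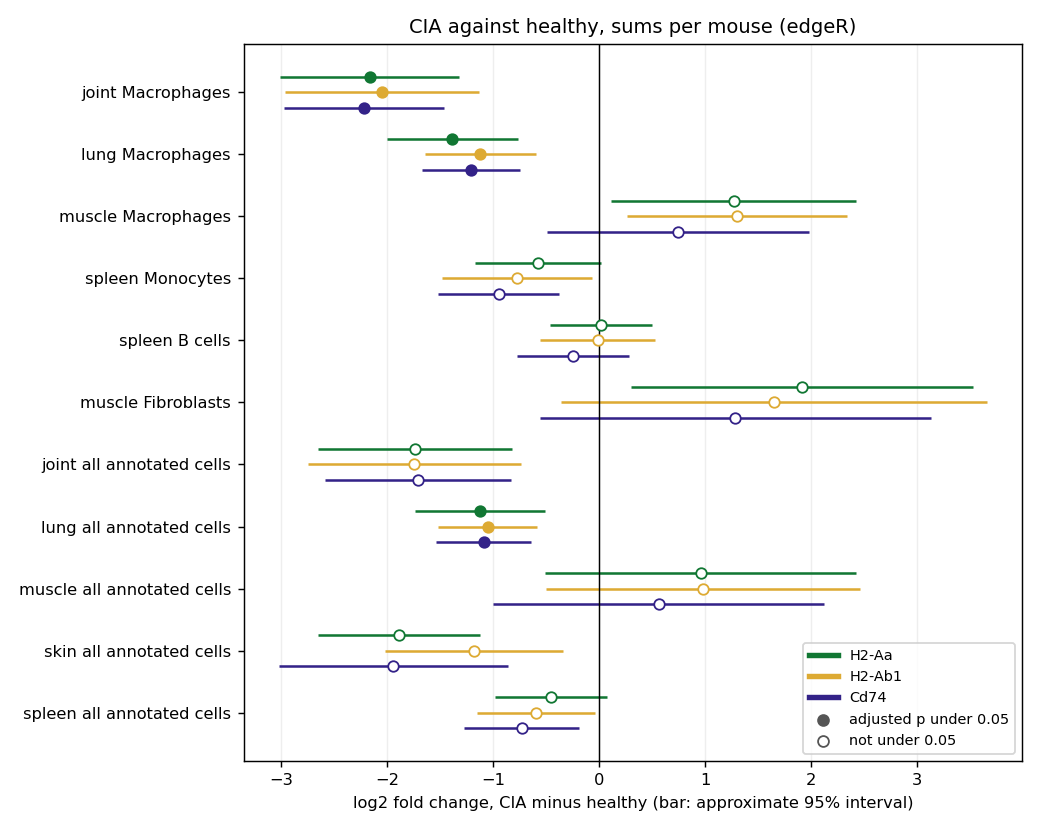
Log2 fold change of CIA against healthy for H2-Aa, H2-Ab1 and Cd74 in 11 comparisons, from sums of UMIs per mouse in edgeR. Bars are approximate 95% intervals, and filled points passed the threshold of 0.05. Joint macrophages, lung macrophages and all labelled cells of lung hold the filled points, all of them below 0.

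Fibroblasts of the joint held traces of class II transcripts. Fibroblasts make and remodel matrix and in the inflamed joint are a main stromal cell. H2-Aa stood at 142 CPM in H3, 0 in H4 and 129 in H7 and at 14.0 in S1, 29.1 in S3 and 31.9 in S5. Cd74 stood at 127, 77.4 and 336 CPM against 37.3, 102 and 103. The values overlapped in both genes, no member passed the filter, and 1.68% of the 1014 genes tested were called. Thinned shares of joint fibroblasts with a UMI of Cd74 were 5.19% ± 2.59 (SD, n = 3) in healthy and 2.78% ± 1.01 (n = 3) in CIA mice (exact permutation p = 0.30, where 0.10 is the smallest possible). Without thinning, 7.13% of 603 joint fibroblasts held Cd74 (exact 95% interval 5.21 to 9.49%, median 965 UMIs), against 4.87% of joint granulocytes (3.46 to 6.66%, median 830 UMIs). The cells are pooled over mice and the intervals overlap, and the part of free RNA in this share was not tested.

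Skin fibroblasts also held few class II transcripts. H2-Aa was at 0, 133, 24.8 and 26.4 CPM in H3, H4, H6 and H7, and among 5 CIA mice it was found in S2 alone, at 53.3 CPM. Cd74 ran from 26.4 to 88.7 CPM in healthy mice and was found in S2 (26.7 CPM) and S3 (157.6 CPM) among the CIA mice. No member was tested in this class, where 0% of genes were called.

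Muscle fibroblasts stood apart from these. H2-Aa was at 132 CPM in H3, 153 in H4, 1278 in H6 and 502 in H7, and at 165 in S1, 1374 in S2, 769 in S5 and 4079 in S6. Cd74 ran from 153 to 2654 CPM in healthy and from 0 in S1 to 4953 in S6. The log2 fold change was 1.91 for H2-Aa (SE 0.82, adjusted p = 0.65), 1.65 for H2-Ab1 (SE 1.03, adjusted p = 0.73) and 1.28 for Cd74 (SE 0.94, adjusted p = 0.75), and edgeR called 0% of 173 genes, the 3 members included, with H2-Aa at an unadjusted p of 0.042. An unadjusted p under 0.05 was found for 11 of those 173 genes. Without S6 the change was 0.92 for H2-Aa, 0.15 for H2-Ab1 and 0.67 for Cd74. A B cell gene was found in 64 of 85 fibroblasts of S6 (75.3%), 5 of 16 of S2 and 15 of 174 of S5. Among the healthy mice a B cell gene was found in 4 of 17 of H7 and 2 of 14 of H6. The fibroblasts of H3, H4 and S1 held none. The fibroblast markers summed to 11992 to 35124 CPM in healthy and 28083 to 49310 in CIA mice. The part of B cell RNA was not tested.

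**Figure D5:**
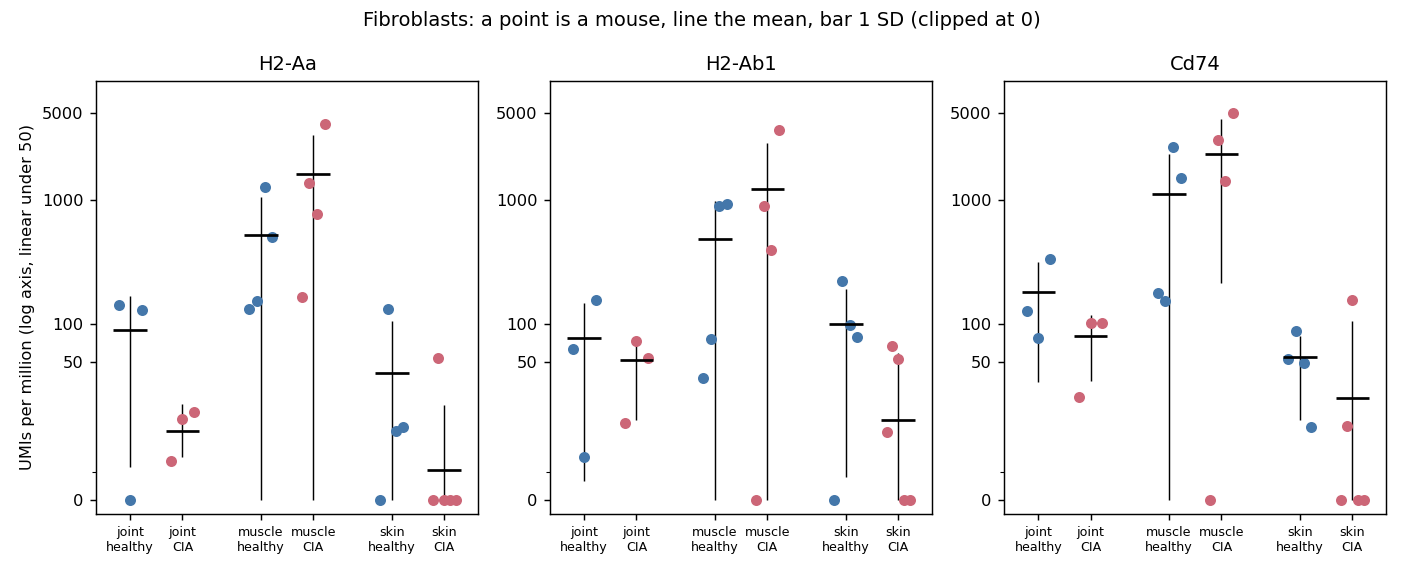
Level of H2-Aa, H2-Ab1 and Cd74 in fibroblasts (CPM, log axis that is linear under 50) of mice with at least 10 fibroblasts. Each point is a mouse, the line is the mean and the bar is 1 SD, clipped at 0. Joint and skin mice lie under 350 CPM in the 3 panels, and muscle mice reach 4953 CPM for Cd74 in S6.

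Between organs, fibroblasts of muscle held more class II transcript on average than those of joint and skin. The muscle mice H3, H4 and S1, without a B cell UMI in these cells, ran from 132 to 165 CPM of H2-Aa. Mice ran from 0 to 142 CPM in joint and from 0 to 133 in skin. In joint, S5 had a B cell UMI in 17 of 160 fibroblasts and H2-Aa at 31.9 CPM. The part of B cell RNA in the difference between organs was not tested. No member passed the low count filter in joint or skin fibroblasts alone, so these genes entered the fit below through muscle, where they are high. Its p-values and shares of genes therefore carry no support for the difference. The log2 difference of joint minus muscle was -4.35 for H2-Aa (SE 0.78, adjusted p = 0.0011), -3.84 for H2-Ab1 (SE 0.76, adjusted p = 0.0022) and -3.76 for Cd74 (SE 0.71, adjusted p = 0.0015), where 1.07% of 842 genes were called lower. With the mouse as a block these were -2.57 (adjusted p = 0.038), -1.93 (adjusted p = 0.081) and -2.17 (adjusted p = 0.038), so that H2-Ab1 was lost. Muscle minus skin was 5.14 for H2-Aa (adjusted p = 2.3e-05), 3.79 for H2-Ab1 (adjusted p = 0.00033) and 5.47 for Cd74 (adjusted p = 8e-06), where 12% were called higher. Joint and skin fibroblasts did not differ in a member (27.3% of genes called), although Cd74 was called higher in joint with the block (adjusted p = 0.018). The product of organ and disease gave no member (0.176% of genes for joint minus muscle and 0% for joint or muscle minus skin). In the fit of every gene, H2-Eb1 and H2-DMa were also lower in joint than in muscle (adjusted p = 0.040 and 0.0047) and, with H2-DMb1 and H2-DMb2, higher in muscle than in skin. The share of genes called in the fit of every gene is not given, so the calls of these sparse members carry no reading alone. With H6, S2 or S6 left out, or without cells with a B cell UMI, 2 of the 3 genes fell below the filter, so that their calls could not be repeated without them.

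Endothelial cells line the vessels through which leukocytes enter a tissue. They were few per mouse, and were compared in a setting chosen after the data were seen, with at least 5 cells in at least 2 mice of a group. In joint, H2-Aa was at 136 CPM in H3 and 0 in H4 and at 40.9 in S1, 147 in S3, 103 in S5 and 46.3 in S6, with 0% of 425 genes called and no member past the filter. The pooled share of joint endothelial cells with a UMI of Cd74 was 6.98% of 258 cells (exact 95% interval 4.19 to 10.8%). In muscle, H2-Aa was at 0 CPM in H3, 15.0 in H4, 867 in H6 and 917 in H7, against 134 in S1 and 493 in S5. Of 240 muscle endothelial cells, 29.2% held Cd74. H6 and H7 are again the high healthy mice, as in fibroblasts and T cells of muscle, and 0% of 166 genes were called. Skin gave 40 endothelial cells, with a UMI of Cd74 in 7.5%.

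Spleen B cells, a classical class II cell, showed no called difference. Cd74 stood at 6759 ± 552 CPM in healthy (SD, n = 4) and 5753 ± 1770 in CIA mice (n = 6), with S3 lowest at 2986. The log2 fold change was 0.02 for H2-Aa (approximate 95% interval -0.46 to 0.50), -0.02 for H2-Ab1 (-0.56 to 0.53) and -0.25 for Cd74 (-0.78 to 0.28). None of the 9 members tested was called, as were 0% of 1252 genes. H2-Ob was at -0.85 (SE 0.51, adjusted p = 1.00 by edgeR).

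Spleen monocytes lay lower in CIA without passing the threshold. Cd74 stood at 2989 CPM in H3, 7510 in H4, 6234 in H6 and 5715 in H7 and ran from 2375 in S3 to 4804 in S8, with overlap through H3. The log2 fold change was -0.95 (SE 0.29, adjusted p = 0.081) for Cd74, -0.77 (SE 0.36, adjusted p = 0.29) for H2-Ab1 and -0.58 (SE 0.30, adjusted p = 0.35) for H2-Aa in edgeR, in a class where 6.36% of genes were called. Markers moved in these cells as well, with the macrophage genes (7 of 9 detected) at 2281 to 5593 CPM in healthy and 6987 to 13047 in CIA mice, the 5 monocyte genes at 1278 to 1855 and 3242 to 6734, and the 6 granulocyte genes at 722 to 1061 and 2912 to 24069. B cell genes (6 of 6) ran from 620 to 1135 and from 258 to 714 CPM, and dendritic cell genes (9 of 9) from 361 to 1239 and from 321 to 1235. Their part in the class II values was not tested. Cd74 passed in DESeq2 (adjusted p = 0.014) and without cells with a B cell UMI (adjusted p = 0.033), and 1 member was called without H3. In the other classes no member was called: 0.0511% of genes were called in muscle T cells, 0.789% in spleen T cells, and 0% in joint T cells, joint granulocytes, lung T cells, skin Basal III cells, spleen erythrocytes and spleen NK cells.

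Summed over all labelled cells of an organ, a lower level can come from fewer cells of a type or from less RNA per cell, which cannot be told apart. In lung, where most cells were macrophages, H2-Aa (-1.13, SE 0.31, adjusted p = 0.044), H2-Ab1 (-1.05, SE 0.24, adjusted p = 0.013) and Cd74 (-1.09, SE 0.23, adjusted p = 0.0071) were called lower in edgeR, with 2.04% of genes called lower, and none was called without H3 or without H4. The call of H2-Aa was kept in only 2 of the 10 fits that left out a mouse, without H6 and without S8, with adjusted p up to 0.25, and was lost with plain library sizes or without the low count filter. In joint, H2-Aa ran from 549 to 1196 CPM in healthy and from 78.1 to 462 in CIA mice, with a log2 fold change of -1.74 (SE 0.47, adjusted p = 0.18) and 0.127% of genes called, and DESeq2 called the 3 members. In skin, H2-Aa ran from 241 to 556 CPM and from 0 to 218 (-1.89, SE 0.39, adjusted p = 0.19, 0% of genes called), and 1 member was called without S2. In spleen, 6 of 9 members had an unadjusted p under 0.05 in edgeR, as had 189 of the 2927 genes tested. None of the 9 members was called (0.137% of genes), with H2-Ob lowest at -1.14 (SE 0.35, adjusted p = 0.32). In muscle, Cd74 ran from 151 CPM in H4 to 12252 in S6 with overlap (0.56, SE 0.80, adjusted p = 1.00 by edgeR), and 0.055% of genes were called.

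A list of 19 other genes of the pathway covered the proteases that trim the invariant chain and antigen, the RFX factors, interferon-gamma receptors and costimulators. The low count filter left 0 to 10 of them per comparison of CIA and healthy mice, with 2 in joint macrophages, 4 in lung macrophages, 4 in muscle macrophages, 1 in muscle fibroblasts and no RFX gene in any comparison, and 0 of those tested were called by edgeR. In lung macrophages the protease gene Ctss was at -0.42 (SE 0.18, adjusted p = 0.21) and Ctsd at -0.80 (SE 0.29, adjusted p = 0.12), and Ctss was at 0.43 (SE 0.47, adjusted p = 0.68) in joint macrophages, by edgeR. Between organs, 2 of the 4 pathway genes tested in macrophages were called, Ctss and Ctsd, both higher in lung than in muscle and than in joint. Averaged over healthy and CIA mice, lung macrophages had more of these proteases and less H2-Aa than muscle. In fibroblasts, Irf1, a transcription factor induced by interferon, was higher in muscle than in skin, and Ctsb was higher in joint than in skin.

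The genes whose level was most like the mean of H2-Aa, H2-Ab1, H2-Eb1 and Cd74 over the 35 classes were Cd83 (Pearson's r = 0.863 of log2 values with 10 CPM added), Cytip (0.842), Irf8 (0.834), H2-Ea-ps (0.813), Ctss (0.783), Ly86 (0.779), Lat2 (0.773) and Ms4a4c (0.758), among 3020 genes of at least 50 CPM on average. Among the members not used in that mean, H2-DMa reached 0.949, H2-DMb1 0.859 and H2-DMb2 0.852. The classes share mice and libraries, so these values are a description.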

How the data were processed

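Single cells of joint, lung, muscle, skin and spleen were profiled with Seq-Well. The tissue was cryopreserved, thawed and dissociated without a sort, and reads were aligned by the authors with STAR to GRCm38 per the study's methods, while the submitters' processing notes name the builds GRCh38 and mm9 and no version of STAR, Picard or bcl2fastq. The authors deposited raw UMI counts per gene and cell with their cell type labels, which were used as given. Per the study's methods cells with very high transcript counts were removed by the authors as likely duplicates, and no doublet caller was run here. The 12096 labelled cells (at least 410 UMIs each) were used, and 1144 unlabelled cells were left out of the comparisons. UMIs were summed per mouse, organ and label for mice with at least 10 cells, in classes with at least 3 such mice per group. The counts were tested with edgeR 4.0.16 in R 4.3.3 (filterByExpr, TMM, quasi-likelihood), with DESeq2 1.42.0 as an alternative, and p-values were adjusted over the genes tested. Standard errors follow from the fold change and F, and approximate 95% intervals are 1.96 SE to each side. Shares used cells thinned to 400 UMIs (seed 20240) and exact permutation tests over mice with scipy 1.17.1. Exact intervals cover counting error only.

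Each of the 10 members was named in every comparison, pathway genes where called, and the 8 genes most alike by correlation. The members and lists were chosen with earlier results of these data known. Mouse identities in the labels pair organs: deviations from group means correlated at a median of -0.00500 over 18 same-mouse pairs of macrophage samples and at -0.0158 over 18 pairs of fibroblast samples. On simulated counts for joint macrophages (255 genes), 95.1% of 61 genes changed by 2 on the log2 scale were recovered. Alternatives were DESeq2, plain library sizes, no low count filter, other cell minimums, the experiment as a term or CIA alone, the mouse as a block, each mouse left out, and cells without B cell UMIs. Leaving out cells with dendritic cell UMIs and comparing endothelial cells over at least 2 mice were chosen after seeing the data. P-values within an organ measure the spread between mice, with 1 sample per organ and mouse. The fits across organs took the samples of a mouse as independent, except where the mouse was a block, so their p-values measure the spread between samples.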

Additional observations from a re-analysis of the deposited data

Results flagged for a closer look

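Of 36 groups of 4 to 10 mice examined, 4 held a mouse far from the others, and chance flags about 1 in 20 groups. In lung macrophages these were H7 among the healthy mice for Cd74, at 1368 CPM, and S8 among the CIA mice for H2-Aa, at 116 CPM. In skin fibroblasts they were S2 for H2-Aa, at 53.3 CPM, and S3 for Cd74, at 158 CPM, in a group whose other CIA mice were mostly at 0.

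The CIA difference in macrophages differed between organs by a test of the difference itself. For joint minus muscle it was -3.36 on the log2 scale for H2-Aa, -3.29 for H2-Ab1 and -2.89 for Cd74, and for lung minus muscle -2.67 for H2-Aa and -2.42 for H2-Ab1. With the mouse as a block none of the 5 was called.

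Among cells without a label, those of muscle held Cd74 at 7940.5 CPM in the CIA mice pooled (221 cells) and at 3995.5 CPM in the healthy mice pooled (84 cells). They entered no comparison.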

How the results depend on the processing

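Counts below are members past the threshold in edgeR unless another tool is named. Without the low count filter they were 0 in joint macrophages, 1 in lung macrophages, 0 in all lung cells, 2 in all skin cells, 3 between joint and muscle macrophages, 1 for the lung minus muscle difference in CIA effect and 1 between joint and skin fibroblasts. Within the experiment CIA alone they were 0 in joint macrophages, lung macrophages and all lung cells. DESeq2 gave 3 in all joint cells and 1 in spleen monocytes. With the mouse as a replicate block, from the pairing of organs by mouse, they were 0 for both differences in CIA effect against muscle and 1 between joint and skin fibroblasts, and H2-Ab1 was lost between joint and muscle fibroblasts. A minimum of 20 cells gave 3 between joint and muscle macrophages and 0 for both differences in CIA effect against muscle. For lung minus muscle, plain library sizes and a minimum of 5 cells also gave 0. Leaving out 1 mouse gave 1 to 3 in joint macrophages, 1 to 3 in lung macrophages, 0 to 3 in all lung cells, 0 to 1 in spleen monocytes, 0 to 1 in all skin cells, 0 to 4 for joint minus muscle and 0 to 2 for lung minus muscle.

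Some changes that were not called turned in sign. In spleen B cells H2-Aa was at -0.0489 with the experiment as a term and -0.164 in the experiment CIA alone, and H2-Ab1 at 0.00760 with plain library sizes and 0.0109 without the filter. With 1 mouse left out they ran from -0.12 to 0.14 and from -0.19 to 0.18. The joint minus lung difference in CIA effect of H2-Aa in macrophages was 0.0209 without the filter. Between joint and skin fibroblasts H2-Ab1 was at 0.16 in DESeq2, 0.31 without the filter and 0.60 with the block, and from -0.33 to 0.56 with 1 mouse left out. The joint minus skin difference in CIA effect in fibroblasts was 0.00979 for Cd74 without the filter, and with 1 mouse left out it ran from -2.32 to 2.69 for H2-Aa, from -0.10 to 1.77 for H2-Ab1 and from -0.88 to 0.81 for Cd74. The causes were not tested. Under the alternatives 374 counts of members stayed within 1.5 times the main count and 34 did not, and 362 counts of genes did and 197 did not. The main count of members was 0 in most comparisons, and 0 that stayed 0 is among the 374. The tally of members therefore does not describe how stable the calls were. Few cells per mouse limit the depth of H2-Eb1, the H2-DM and H2-O genes and Ciita.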
